A study of Homo sapiens with 12 samples.

Results

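The genes examined here are PARP9, DTX3L, PARP14, PARP12, PARP10, ZC3HAV1 and ZC3HAV1L, a set of 7 genes of 61163 in the count tables. They were selected by symbol, from earlier results of these data, because of how their counts differed between the genotypes: PARP14 was read mainly in the knockout and ZC3HAV1L mainly in the wild type. The difference between the genotypes is therefore given for these genes as a description, and how many of them were called is counted once beside the share of all genes, with nothing read from it. RNA was sequenced from HEK293T cells that were wild type (HEK WT) or carried a knockout of HNRNPUL1 made with CRISPR-Cas9 (HEK UL1 KO). HEK293T is an established line derived from human embryonic kidney that expresses the SV40 large T antigen. The sample labels name HEK293T for both genotypes, by which both carry that antigen. The paper, however, spells out HEK WT as wild-type HEK293, so the wild-type line is not settled by these sources. Cells of each genotype were separated into a nucleolar fraction (NO) and a cytoplasmic-nuclear fraction (CN), and 3 biological replicates of each gave 12 libraries in 4 groups. No virus, interferon or other treatment is named for any group, and whether the knockout line is 1 clone or a pool of cells is not given in the sources used here, so a difference between the genotypes cannot be told apart from a difference between the lines.

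PARP enzymes transfer ADP-ribose from NAD+ to proteins and nucleic acids, and most of those studied here attach it as single units. PARP9, PARP10, PARP12, PARP14 and DTX3L are known as interferon-stimulated genes. In that pathway, interferon binds a receptor at the cell surface, the kinases JAK1 and TYK2 are activated, and a complex that holds IRF9 binds a DNA element with repeated GAAA letters in the promoters of antiviral genes. ZC3HAV1 encodes ZAP (also called PARP13), which binds CpG-rich viral RNA and recruits RNA decay enzymes, and ZC3HAV1L encodes a shorter paralog of it.

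The promoter letters are shown first, as a description of where that GAAA element occurs in these genes. The genes were chosen on the genotype difference, so nothing about that difference is read from a match. RefSeq (GRCh38.p14) promoter windows, from 250 bases before to 50 bases after each start, were used for 6 of the genes. PARP10 was left out of this search, so nothing is said of its promoter. PARP9 has more than 1 start, which gives 7 windows in all. The letters GAAANNGAAA (N is any base) were searched on both strands. They were found in 4 of the 7 windows, 1 of PARP9 and those of DTX3L, PARP14 and PARP12, and in 3.57% of the 35116 windows of the table. The PARP9 window at chr3:122564735-122565034, that of its outer start, had no match. No match was found in the windows of ZC3HAV1 and ZC3HAV1L. PARP9 and DTX3L are transcribed away from each other and share 1 match, at chr3:122564332-122564341. It lies on the DTX3L strand at the start of DTX3L and runs 4 bases into the gene. On the other strand it occupies the bases 32 to 41 before the inner start of PARP9. It thus lies within the PARP9 body that runs to the outer start. The stretch below for DTX3L covers chr3:122564301-122564341 on the plus strand, that of PARP14 covers chr3:122680765-122680838 on the plus strand, and that of PARP12 covers chr7:140062952-140063006 on the minus strand. Each is written 5′ to 3′ in the direction of its gene, and capitals mark the match, which in PARP12 is read on the opposite strand.
DTX3L: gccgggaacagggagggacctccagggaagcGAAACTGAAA
PARP14: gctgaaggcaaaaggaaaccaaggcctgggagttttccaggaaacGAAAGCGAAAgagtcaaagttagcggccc
PARP12: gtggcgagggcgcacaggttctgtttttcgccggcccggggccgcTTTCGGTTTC
The match occupies the bases 20 to 29 before the start of PARP14 and the bases 1 to 10 before the start of PARP12. A match describes the letters and does not show that a factor was bound.

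Total counts per library ranged from 37141666 to 104040073, and rRNA took 55.3 to 78.7% of them, since rRNA was not depleted. The counts of the 7 genes were small beside these totals, from 4 to 1089 per library, so several values rest on few reads. HNRNPUL1, the targeted gene, had 1290 to 1495 counts in CN of HEK WT and 288 to 360 in CN of HEK UL1 KO. It fell by 1.83 on the log2 scale (SE 0.0828, adjusted p = 2.12e-07), and in NO it fell by 1.997 (SE 0.323, adjusted p = 0.00649), a call that ended with total counts. A Cas9 deletion need not remove the transcript. Replicate 3 of NO in HEK WT stood apart, with a TMM normalization factor of 1.71 against 0.897 and 0.824 in the others of its group. Leaving it out raised the number of genes called between the genotypes in NO from 327 to 9133, so the NO values below are given with and without it where it changes them. Of 9 marker genes of HEK293 cells none was at 0, but their summed level was 36.3 to 38.1 CPM (counts scaled to a common library size with TMM factors over all 12 libraries) in CN of HEK UL1 KO against 70.2 to 78.6 in CN of HEK WT. VIM and EYA1 fell by 1.47 and 1.79 on the log2 scale, and LHX1 and KRT8 rose by 1.85 and 2.30 (edgeR adjusted p = 9.16e-06, 4.22e-06, 0.000285 and 3.39e-06). Markers of leukocytes summed to at most 0.636 CPM in CN and 2.13 in NO, and those of squamous epithelium to at most 2.29 and 6.13. Those of fibroblasts were low but higher in the knockout without overlap, at 1.46 to 2.01 CPM against 0.820 to 0.893 in CN and at 2.14 to 2.83 against 1.501 to 1.54 in NO. Of these, COL1A1 and LUM, named after their values were seen, rose in CN by 0.75 and 1.72 (adjusted p = 0.0137 and 0.00508), and COL1A2 and DCN had too few counts to be tested there. LUM had 5 to 12 counts in CN of HEK WT and 22 to 24 in CN of HEK UL1 KO. It entered the test through the knockout, where it is higher, so its call supports nothing. The part of these shifts in the results below was not tested.

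Levels are given in CPM, and log2 fold changes and their standard errors (SE) come from edgeR's quasi-likelihood fit to the raw counts. PARP9 and DTX3L encode partners that form a stable complex. PARP9 holds macrodomains that bind ADP-ribose, and DTX3L is a ubiquitin ligase of the deltex family. PARP9 (chr3:122527924-122564784) measured 0.440, 0.590 and 0.503 CPM in the CN libraries of HEK WT and 1.61, 1.46 and 1.32 CPM in those of HEK UL1 KO. The groups did not overlap, and the fitted difference was 1.59 on the log2 scale (SE 0.197). In bulk RNA such as this, fewer cells that express a gene and less RNA per cell cannot be told apart. In NO, PARP9 measured 0.473, 0.327 and 0.757 CPM in HEK WT and 1.09, 0.958 and 1.16 CPM in HEK UL1 KO. The NO groups did not overlap either, and the difference of 0.95 (SE 0.329) was 1.29 without replicate 3 of HEK WT, the highest of its group.

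DTX3L (chr3:122564338-122575203) varied little among the CN libraries of HEK WT, at 0.607, 0.575 and 0.587 CPM, and measured 1.09, 1.23 and 1.52 CPM in HEK UL1 KO. All 3 knockout libraries lay above the wild type, by 1.19 on the log2 scale (SE 0.204). In NO it measured 0.572, 0.630 and 0.399 CPM in HEK WT and 0.650, 0.723 and 0.912 CPM in HEK UL1 KO. The NO groups came within a few hundredths of a CPM of each other, and the difference of 0.45 (SE 0.337) was 0.21 without replicate 3 of HEK WT, here the lowest of its group. The bodies of PARP9 and DTX3L overlap by 447 bases in the RefSeq annotation. The strand setting of the count is not given in the sources used here, so reads from those bases cannot be told apart between the 2 genes. LOC105374071 (chr3:122525899-122559970), counted below as a neighbour, overlaps most of the PARP9 body, with the same limit.

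PARP14, a large ADP-ribosyltransferase with macrodomains, lies in the same stretch of chromosome 3 (chr3:122680839-122730840), 105635 bases beyond DTX3L. It had 10, 11 and 6 counts in the CN libraries of HEK WT and 129, 160 and 119 in those of HEK UL1 KO. In CPM these were 0.152, 0.166 and 0.101 against 2.16, 2.62 and 2.41, and the mean was 17.2 times higher in the knockout (log2 fold change 4.15, SE 0.226). In NO it had 28, 17 and 54 counts in HEK WT and 270, 99 and 119 in HEK UL1 KO, or 0.552, 0.397 and 0.744 CPM against 2.06, 1.79 and 2.31 CPM. PARP14 was thus read in every wild-type library, at a higher level in NO than in CN. The NO difference was 1.78 (SE 0.301), and 1.98 without replicate 3 of HEK WT.

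PARP12 (chr7:140023749-140062951) encodes an ADP-ribosyltransferase with CCCH zinc fingers and is the closest of the PARP enzymes to ZAP in its domains. In CN it measured 0.288, 0.333 and 0.0839 CPM in HEK WT, the last from 5 counts, and 0.870, 0.818 and 0.994 CPM in HEK UL1 KO. Those groups did not overlap (log2 fold change 1.97, SE 0.374). In NO it measured 0.631, 0.537 and 1.16 CPM in HEK WT and 1.45, 1.57 and 1.36 CPM in HEK UL1 KO. The groups again lay apart, with replicate 3 of HEK WT nearest the knockout, and the difference of 0.84 (SE 0.315) was 1.202 without it.

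PARP10 (chr8:143977158-144012764), a mono-ADP-ribosyltransferase, had the fewest reads of the 5 genes listed above as interferon-stimulated and overlapped between the genotypes in both fractions. It measured 0.152, 0.197 and 0.101 CPM in CN of HEK WT and 0.167, 0.360 and 0.629 CPM in CN of HEK UL1 KO, from 6 to 31 counts. The fitted difference of 1.40 (SE 0.505) was 0.89 without replicate 3 of HEK UL1 KO. In NO it measured 0.256, 0.257 and 0.592 CPM in HEK WT and 0.229, 1.07 and 0.116 CPM in HEK UL1 KO. The knockout libraries spanned more than the wild type on both sides, and the difference of 0.25 (SE 0.608) was 0.70 without replicate 3 of HEK WT and turned to −1.09 without replicate 2 of HEK UL1 KO.

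ZC3HAV1 (chr7:139043515-139109720), the gene of ZAP, was read at the highest CPM of the 7 genes in every library. It measured 14.95, 14.4 and 18.3 CPM in CN of HEK WT and 11.1, 11.2 and 9.80 CPM in CN of HEK UL1 KO. All 3 knockout libraries lay below the wild type, by −0.48 on the log2 scale (SE 0.0911). In NO it measured 6.83, 8.26 and 5.71 CPM in HEK WT and 5.60, 4.84 and 7.59 CPM in HEK UL1 KO. The NO groups overlapped, and the difference of −0.28 (SE 0.285) was −0.45 without replicate 3 of HEK WT and turned to 0.21 when libraries were scaled by total counts.

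ZC3HAV1L (chr7:139021498-139036042), which lies 7472 bases from ZC3HAV1, showed the reverse of PARP14. It had 511, 422 and 377 counts in the CN libraries of HEK WT and 4, 5 and 4 in those of HEK UL1 KO, or 7.76, 6.39 and 6.33 CPM against 0.0669, 0.0818 and 0.0812 CPM. The mean was 89.0 times higher in HEK WT (log2 fold change −6.36, SE 0.200). In NO it had 116, 105 and 113 counts in HEK WT and 41, 8 and 12 in HEK UL1 KO, or 2.29, 2.45 and 1.56 CPM against 0.313, 0.145 and 0.233 CPM. The groups lay far apart in NO too, with a mean 9.11 times higher in HEK WT (log2 fold change −3.19, SE 0.352, and −3.39 without replicate 3 of HEK WT).

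**Figure D1:**
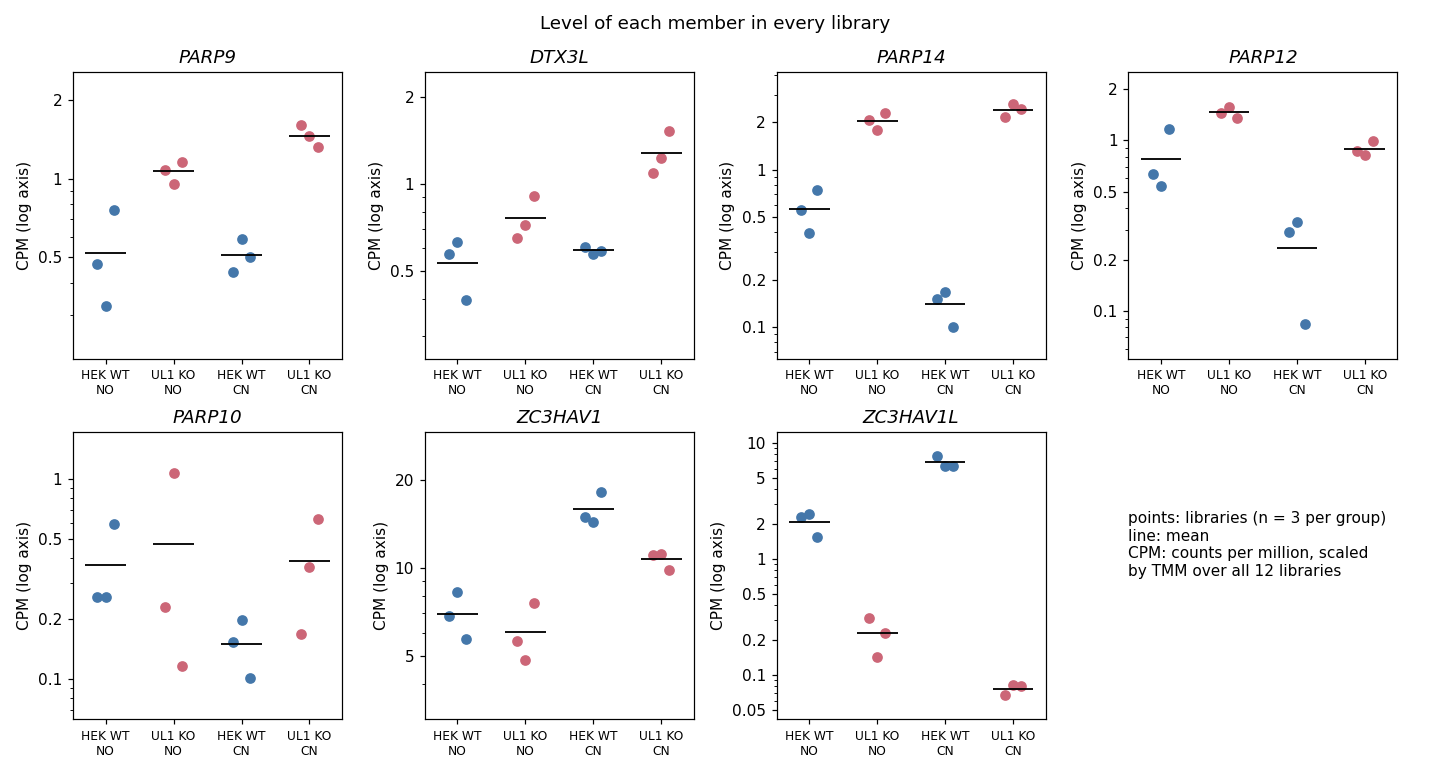
Level of each gene in CPM (log axis) in the 3 libraries of each genotype and fraction, with the mean as a line. PARP14 lay at 0.101 to 0.166 CPM in CN of HEK WT and at 2.16 to 2.62 CPM in CN of HEK UL1 KO, ZC3HAV1L lay at 6.33 to 7.76 and 0.0669 to 0.0818 CPM, and PARP10 overlapped between the genotypes in both fractions.

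In CN, 5 of the 7 genes were called higher in HEK UL1 KO and 2 lower, where 15.6% and 22.3% of the 27234 genes tested were called. The number higher was 4 with DESeq2, total counts, the replicate block and all 12 libraries and without replicate 2 or replicate 3 of HEK UL1 KO or replicate 1 or replicate 3 of HEK WT, while the number lower was 1 with total counts and with all 12 libraries. In NO, PARP14 was called higher and ZC3HAV1L lower, where 0.365% and 0.574% of 34836 genes were called. With total counts both calls in NO ended, and without replicate 3 of HEK WT 3 were higher and 1 lower. The CPM of the genotypes did not overlap for 4 genes that were higher and 2 that were lower in CN, where 20.8% and 32.0% of all genes tested did not overlap, and for 4 that were higher and 1 that was lower in NO, where 11.5% and 8.49% did not. These counts are printed with their background only, because the genes were chosen on this contrast. Genes of low level leaned towards the knockout: among the 7386 genes tested with a mean of 0.5 to 2 CPM in CN, which include PARP9, DTX3L, PARP14 and PARP12, the median log2 fold change was 0.17, 1 in 10 genes exceeded 0.93, and 19.8% rose. Among the 8067 genes under 0.5 CPM, which include PARP10, the median was 0.41, and among the 5333 genes from 5 to 20 CPM, which include ZC3HAV1, it was −0.25 and 49.5% fell. The part of this lean in the members' values was not tested. Scaling by total counts moved the median of all genes by 0.40 in NO and 0.20 in CN.

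**Figure D2:**
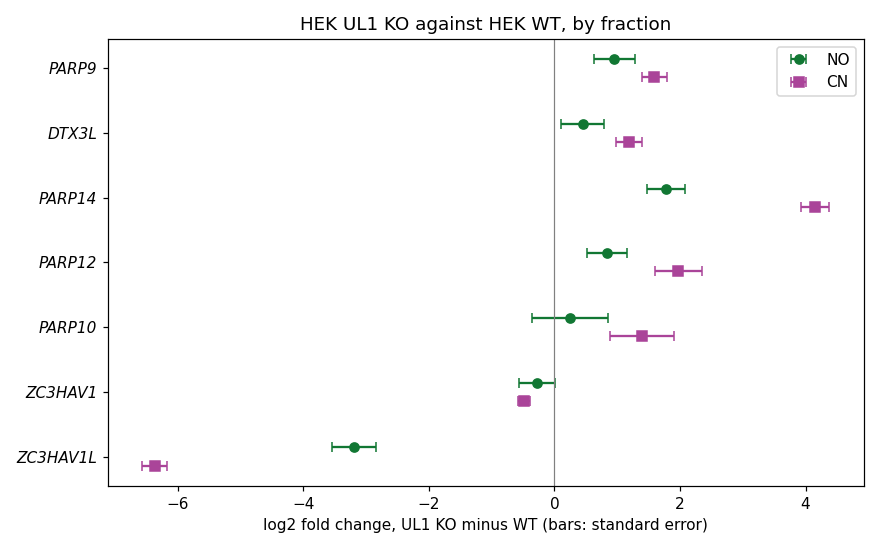
Log2 fold change of each gene, HEK UL1 KO minus HEK WT, in NO (circles) and CN (squares), with standard errors as bars. In CN, PARP14 stood at 4.15 and ZC3HAV1L at −6.36, and both lay nearer to 0 in NO, at 1.78 and −3.19.

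Per kilobase of exon, the order of the levels differed between the genotypes. In CN of HEK WT, ZC3HAV1L led at 3.86 ± 0.458 CPM per kilobase (SD, n = 3), followed by ZC3HAV1 at 1.88 ± 0.247, DTX3L at 0.102 ± 0.00281, PARP9 at 0.0572 ± 0.00842, PARP12 at 0.0427 ± 0.0241, PARP10 at 0.0248 ± 0.00796 and PARP14 at 0.0136 ± 0.00336. Of the neighbours in that order, PARP9 and PARP12 overlapped between libraries, and so did PARP12 and PARP10. In CN of HEK UL1 KO, ZC3HAV1 led at 1.26 ± 0.0915 CPM per kilobase, PARP14 came next at 0.233 ± 0.0223, overlapping with DTX3L at 0.222 ± 0.0384, and ZC3HAV1L came last at 0.0434 ± 0.00475, overlapping with PARP10 at 0.0639 ± 0.0384. In NO of HEK UL1 KO, ZC3HAV1 at 0.710 ± 0.168, PARP12 at 0.265 ± 0.0195 and PARP14 at 0.200 ± 0.0253 CPM per kilobase led without overlap. In NO of HEK WT, every pair of neighbours in the order overlapped except ZC3HAV1 at 0.819 ± 0.151 and PARP12 at 0.141 ± 0.0606.

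NO was compared with CN within each genotype to find in which fraction the transcripts were relatively more abundant. This contrast was not used to choose the genes, so it was tested over all genes. In HEK WT, PARP14, PARP12 and PARP10 were higher in NO than in CN, and ZC3HAV1 and ZC3HAV1L were lower. That is 3 genes higher and 2 lower, where 31.9% and 20.9% of the 29340 genes tested were called. PARP14, PARP12 and PARP10 each had fewer than 10 counts in at least 1 CN library and gave no value when 10 counts were required in every library. They entered the test through NO, where they are higher, and a gene that enters in this way had to differ, so their calls support nothing and their values follow as a description. PARP14 was higher in NO by 2.30 (SE 0.453, adjusted p = 0.00468) and by 1.94 without replicate 3 of NO (adjusted p = 0.0102). PARP12 was higher by 2.02 (SE 0.542, adjusted p = 0.0122) and by 1.48 without that replicate (adjusted p = 0.048). With the replicate block its adjusted p was 0.0649, and with total counts it was 0.054. PARP10 was higher by 1.62 (SE 0.528, adjusted p = 0.0271), but only by 0.95 without that replicate (adjusted p = 0.143), and leaving out replicate 1 or replicate 3 of CN also ended its call (adjusted p = 0.0852 and 0.093), as did the block, DESeq2, total counts and a fit of all 12 libraries.

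The ZAP genes went the other way in HEK WT. ZC3HAV1 was lower in NO by −0.94 (SE 0.161, adjusted p = 0.004), a call that ended with total counts at −0.59 (adjusted p = 0.092), and ZC3HAV1L by −1.46 (SE 0.189, adjusted p = 0.00237). PARP9 and DTX3L differed between the fractions by 0.35 (SE 0.417, adjusted p = 0.509) and 0.10 (SE 0.315, adjusted p = 0.81), and the sign of each turned in some alternatives. For PARP14, PARP12 and PARP10 all 3 NO libraries lay above the CN libraries, and for both ZAP genes they lay below. The exact two-sided permutation test of the CPM gave p = 0.1 for these 5 genes, the smallest that 3 libraries against 3 allow.

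In HEK UL1 KO, PARP12 was again higher in NO, by 0.69 (SE 0.178, adjusted p = 0.00441, but 0.0861 with DESeq2 and 0.0615 with all 12 libraries in one fit), and ZC3HAV1 again lower, by −0.86 (SE 0.171, adjusted p = 0.00091). With ZC3HAV1L this gives 2 genes higher, and with PARP9 and DTX3L 3 genes lower, where 40.7% and 35.6% of 34468 genes were called. ZC3HAV1L, at 4 to 5 counts in CN, was higher in NO by 1.62 (SE 0.404, adjusted p = 0.00351, but 0.0605 with DESeq2). It too gave no value when 10 counts were required in every library, and entered the test through NO, where it is higher, so its call supports nothing either. PARP9 was lower in NO by −0.48 (SE 0.169, adjusted p = 0.0216) and DTX3L by −0.79 (SE 0.208, adjusted p = 0.0046). PARP14 differed by −0.25 (SE 0.156, adjusted p = 0.16) and PARP10 by 0.23 (SE 0.685, adjusted p = 0.767). Scaling by total counts moved the median of all genes in this contrast by 0.76, put PARP9 at 0.28 and PARP14 at 0.51 (adjusted p = 0.256 and 0.0296), and left ZC3HAV1 at −0.11 and DTX3L at −0.04 (adjusted p = 0.655 and 0.904), so these directions hold only relative to the median gene. The PARP9 call also ended without replicate 1 or replicate 2 of NO or replicate 1 of CN (adjusted p = 0.0729, 0.0885 and 0.0536), with TMM without rRNA genes, with the replicate block and with all 12 libraries (adjusted p = 0.0709, 0.0526 and 0.13). With 10 counts required in every library, PARP9 lay at −0.04 and DTX3L at −0.36 (adjusted p = 0.84 and 0.148).

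**Figure D3:**
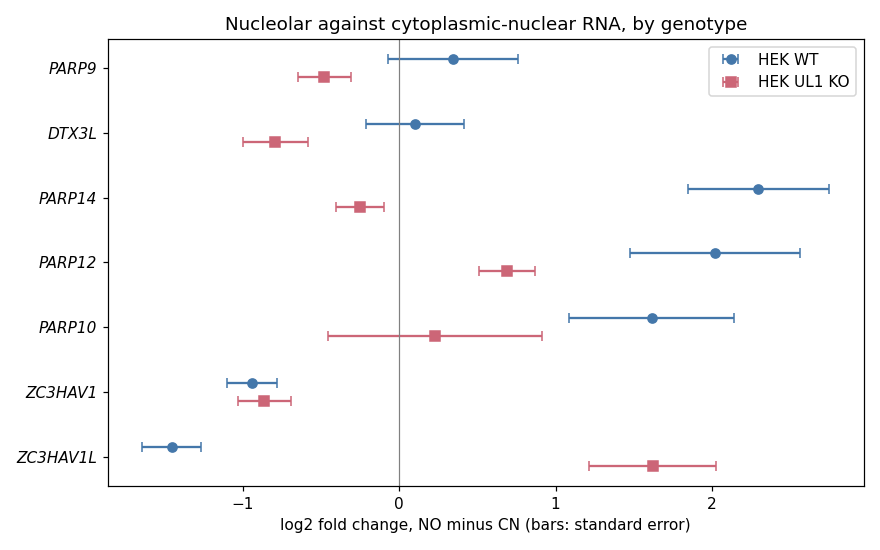
Log2 fold change of each gene, NO minus CN, in HEK WT (circles) and HEK UL1 KO (squares), with standard errors as bars. PARP14 lay at 2.30 in HEK WT and −0.25 in HEK UL1 KO, ZC3HAV1L at −1.46 and 1.62, and ZC3HAV1 at −0.94 and −0.86.

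Whether the genotype difference was unequal between the fractions was asked with an interaction term between genotype and fraction, fitted over the 12 libraries. The interaction was tested for the 5 genes whose selection did not rest on being read in 1 genotype. The interaction was −0.51 for PARP9 (SE 0.392), −0.59 for DTX3L (SE 0.371), −1.02 for PARP12 (SE 0.498), −1.07 for PARP10 (SE 0.919) and 0.36 for ZC3HAV1 (SE 0.290). None of these 5 was called, and nothing is read from that. Across all 37806 genes 0.0846% had a called positive interaction and 0.0291% a called negative one, so few genes passed this test. For the genes with the largest genotype difference the interaction was −2.24 for PARP14 (SE 0.391) and 3.36 for ZC3HAV1L (SE 0.451), that is, both genes differed less between the genotypes in NO than in CN.

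Other genes of the ADP-ribose system changed in both directions. Of 12 other PARP family genes tested in CN, 2 rose and 4 fell, with a median log2 fold change of 0.09 against 0.04 over all genes. TIPARP, a mono-ADP-ribosyltransferase induced by the aryl hydrocarbon receptor, fell by 1.22 (SE 0.102, adjusted p = 1.18e-05), PARP1, the main DNA damage PARP, fell by 0.59 (SE 0.0885, adjusted p = 0.000481), and TNKS2, a tankyrase, fell by 0.56 (SE 0.0695, adjusted p = 0.000139). PARP2, which acts beside PARP1 at DNA breaks, fell by 0.29 (SE 0.0955, adjusted p = 0.0352). PARP4 and TNKS each rose by 0.26 (SE 0.0861 for both, adjusted p = 0.0344 and 0.0336), calls that ended with DESeq2, with the replicate block, without a filter, with all 12 libraries and without replicate 1 or replicate 2 of CN of either genotype, and of the 4 falls 1 was called with total counts or all 12 libraries. PARP15, which lies between DTX3L and PARP14, measured 0.37 (SE 0.455, adjusted p = 0.543). In NO, TIPARP fell by 1.38 (adjusted p = 0.0484) and the other 11 did not pass. The TIPARP call ended with total counts, TMM without rRNA genes, the replicate block, 10 counts in every library and when any NO library but replicate 3 of HEK WT was left out. Of the 12, 2 fell with DESeq2 and with all 12 libraries, and 4 fell without replicate 3 of HEK WT. Of 7 genes for enzymes that remove or degrade ADP-ribose, OARD1 rose by 0.87 and MACROD2 by 0.61 (adjusted p = 0.0066 and 0.000179), PARG and ENPP1 fell by 0.37 and 0.38 (adjusted p = 0.00263 and 0.00194), and the median was 0.03. With total counts or all 12 libraries the calls of both falls ended. In NO, edgeR called 0 of 8 (1 higher at an unadjusted p under 0.05) and DESeq2 called 0, and 1 fell without replicate 3 of HEK WT.

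Of 18 genes for ZAP cofactors and RNA decay enzymes 11 fell and 1 rose in CN, with a median of −0.31, a count that became 1 and 1 with total counts and 1 and 0 with all 12 libraries in one fit. Over all genes tested in CN 22.3% fell, with 49.5% of those from 5 to 20 CPM and 58.4% of those above 20 CPM. EXOSC3, a cap subunit of the RNA exosome, fell by 0.86 (SE 0.117, adjusted p = 0.000267), the decapping genes DCP1A and DCP2 fell by 0.53 and 0.47 (adjusted p = 0.000261 and 0.00405), and DHX30, an RNA helicase that binds ZAP, fell by 0.42 (adjusted p = 0.00086). The gene that rose, EXOSC4 (0.84, SE 0.276, adjusted p = 0.0339), is also a neighbour of PARP10. TRIM25, the ubiquitin ligase that ZAP needs, measured 0.16 (SE 0.116, adjusted p = 0.307), and KHNYN, its nuclease cofactor, −0.21 (SE 0.132, adjusted p = 0.224). In NO, edgeR called 0 of the 18, with a median of −0.42, 3 were lower at an unadjusted p under 0.05, DESeq2 called 1 lower, and 7 fell without replicate 3 of HEK WT.

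Of 18 interferon receptor and signalling genes tested in CN, 1 rose and 6 fell, with a median of −0.20, or 1 and 1 with total counts and in the fit of all 12 libraries. STAT2 measured 0.07 (SE 0.201, adjusted p = 0.805), IRF9 −0.17 (SE 0.344, adjusted p = 0.717) and IRF1 −0.32 (SE 0.294, adjusted p = 0.419). JAK1, the kinase shared by the receptors, fell by 0.98 (SE 0.0733, adjusted p = 5.88e-06), and the receptor genes IFNGR1 and IFNAR2 and the phosphatase gene PTPN2 fell by 0.50, 0.45 and 0.45. IRF2, which binds the same promoter element and is known mainly as a repressor there, rose by 0.98 in CN (SE 0.147, adjusted p = 0.000486) and by 1.43 in NO (adjusted p = 0.0247), the only one of 19 genes called in NO, a call that ended with total counts, without replicate 2 of HEK UL1 KO and without replicate 1 or replicate 2 of HEK WT. Without replicate 3 of HEK WT, 1 of 20 rose and 6 fell in NO.

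Of 44 other interferon-stimulated genes tested in CN, 17 rose and 4 fell, where 15.6% and 22.3% of all genes did, with a median of 0.51, and 16 of the 60 listed were not tested because of low counts. With the replicate block 12 rose and 3 fell, and with all 12 libraries in one fit 11 of 57 rose and 2 fell. With 10 counts required in every library, 11 of 30 rose and 3 fell, with a median of 0.34. Many of the listed genes lie at low levels. Among all genes tested under 0.5 CPM in CN, 13.4% rose and 3.76% fell, with a median of 0.41. From 0.5 to 2 CPM, 19.8% rose and 10.7% fell, with a median of 0.17. The part of this lean in the values of the list was not tested. Among the genes that rose with a mean of at least 50 counts, the largest rises were OAS3, a sensor of double-stranded RNA, at 1.82 (SE 0.266, adjusted p = 0.000414), LGALS3BP, a secreted glycoprotein, at 1.43 (SE 0.229, adjusted p = 0.000743), SLFN5 at 1.34 (SE 0.163, adjusted p = 0.000122) and SAMD9 at 0.88 (SE 0.157, adjusted p = 0.00144). MX1, an antiviral GTPase, rose by 2.01 from a mean of 14 counts (SE 0.509, adjusted p = 0.0103). It had 1 to 11 counts in HEK WT and 20 to 23 in HEK UL1 KO. It thus entered the test through the knockout, where it is higher, so its call supports nothing. IFI6, OAS2, IFITM2, IFITM3, APOL6 and UBE2L6, named after their values were seen, also rose. Each had fewer than 10 counts in at least 1 CN library of HEK WT and at least 10 in all of HEK UL1 KO. They entered in the same way, so their calls among the 17 support nothing either. TDRD7, PLSCR1, HERC5 and IFIT5 fell by 0.75, 0.65, 0.53 and 0.47 (adjusted p = 0.000932, 0.00267, 0.0046 and 0.0348). IFIT1 and OAS1, often among the strongest interferon-induced genes, measured 0.41 (SE 0.222, adjusted p = 0.169) and 1.08 (SE 0.5, adjusted p = 0.113), and ISG15 had too few counts to be tested. In NO, edgeR called 0 of 55, with a median of 0.34, 8 were higher at an unadjusted p under 0.05 and DESeq2 called 1 higher. Without replicate 3 of HEK WT, 9 of 57 rose and 1 fell in NO. The promoter element shown above was found in 52.2% of the promoter windows of this list. In CN, 10 of 23 listed genes with it rose and 3 fell, with a median of 0.51, and 3 of 13 without it rose and 1 fell, with a median of 0.37, a difference that was not tested. Genes that entered the test through the knockout were not removed from these counts. Over all genes tested in CN with the element in a window, 20.7% rose and 21.4% fell, with a median of 0.17. Over those without it, 15.6% rose and 25.4% fell, with a median of 0.01. This difference was also not tested.

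Of 10 genes for sensing of foreign RNA and DNA tested in CN, 3 rose and 2 fell, with a median of 0.21. With 10 counts required in every CN library, 1 of 6 rose and 2 fell, with a median of 0.04. DDX60, a helicase of antiviral defence, rose by 1.42 in CN (SE 0.155, adjusted p = 6.34e-05) and by 1.41 in NO (adjusted p = 0.0344). TLR3 and STING1, of low counts and named after their values were seen, rose by 2.61 and 2.28 in CN (adjusted p = 0.000441 and 0.00613), and TLR3 rose by 2.43 in NO (adjusted p = 0.00665). Both calls in NO ended with total counts and with 10 counts in every library, and 1 gene of the list was called without replicate 2 or replicate 3 of HEK UL1 KO or replicate 1 or replicate 2 of HEK WT, while 3 rose and 2 fell without replicate 3 of HEK WT. In CN, TLR3 had 4 to 10 counts in HEK WT and 31 to 35 in HEK UL1 KO. STING1 had 1 to 5 in HEK WT and 10 to 16 in HEK UL1 KO. Both entered the test through the knockout, where they are higher, as TLR3 also did in NO. Their calls therefore support nothing. The kinase gene TBK1 and its adaptor gene TRAF3 fell in CN by 0.75 and 0.63 (adjusted p = 5.43e-05 and 0.000219). Of 6 genes for other deltex and related ubiquitin ligases, TRIM56, also named after its values were seen, rose by 1.37 (SE 0.210, adjusted p = 0.000545) and none fell. In NO, edgeR and DESeq2 called 0 of 7 (1 higher at an unadjusted p under 0.05), and 1 fell without replicate 3 of HEK WT. Of the paralogs of hnRNP UL1, HNRNPU fell by 0.48 in CN (SE 0.0773, adjusted p = 0.000747) and HNRNPUL2 was not called. In NO, HNRNPUL1 fell and the others were not called, and without replicate 3 of HEK WT all 3 fell. Of the 2 falls among these 3 genes in CN, 1 was called with total counts or all 12 libraries.

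**Figure D4:**
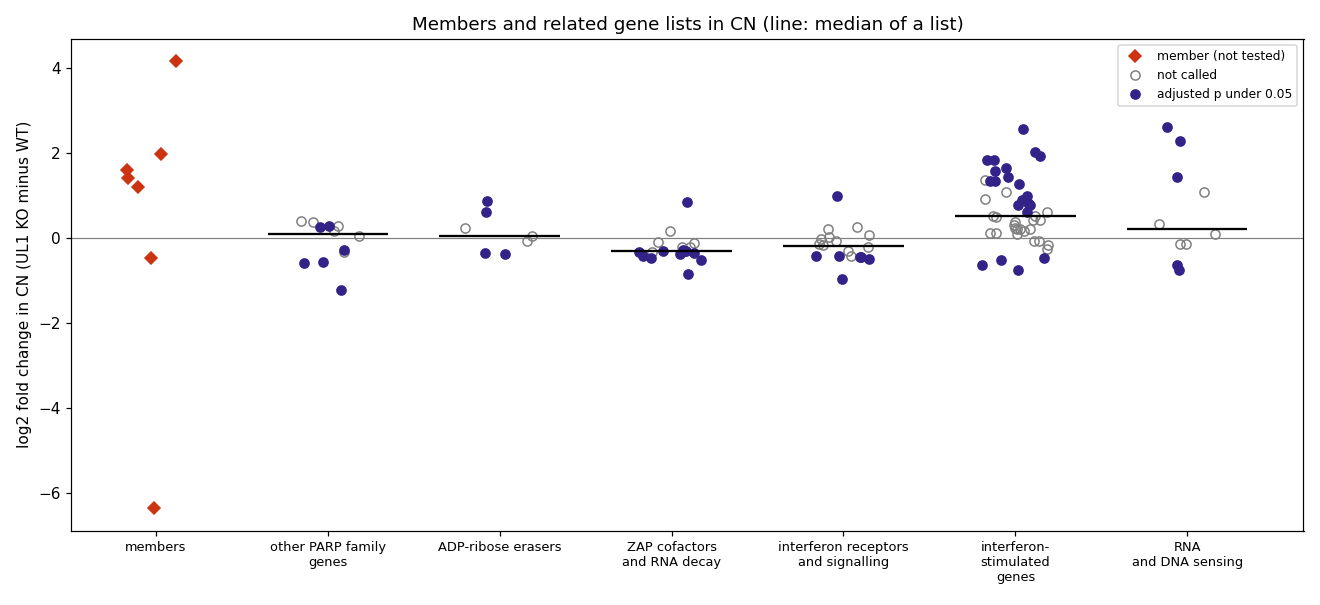
Log2 fold change in CN, HEK UL1 KO minus HEK WT, for the 7 genes (diamonds, not tested) and 6 related gene lists (circles, filled where the adjusted p was under 0.05), with the median of each list as a line. The interferon-stimulated genes had a median of 0.51 and the interferon receptors and signalling genes one of −0.20.

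The neighbours of the genes on their chromosomes were compared in CN. The 5 nearest tested genes on each side were taken in the order of their starts, so some overlap a member. Around PARP9, DTX3L and PARP14, 1 of 12 neighbours rose and 4 fell, with a median of 0.02. SEMA5B rose by 1.18 (SE 0.245, adjusted p = 0.00344), HSPBAP1, next to PARP14, fell by 0.63 (SE 0.109, adjusted p = 0.00116), KPNA1 fell by 0.50, PDIA5 by 0.37 and SLC49A4 by 0.35. PARP15 and EIF4BP8, between DTX3L and PARP14, both measured 0.37 (SE 0.455 and 0.460, adjusted p = 0.543 for both). Around ZC3HAV1L and ZC3HAV1, SVOPL rose by 1.05 (adjusted p = 0.0204), TRIM24 and UBN2 fell by 0.39 and 0.33, and the other 7 of 10 did not pass. KIAA1549, the tested gene next to ZC3HAV1L, measured −0.08 (SE 0.0815, adjusted p = 0.441) where ZC3HAV1L itself measured −6.36. Around PARP12, TBXAS1 rose by 0.53, KDM7A, MKRN1 and SLC37A3 fell by 0.52, 0.32 and 0.26, and 6 of 10 did not pass. In NO, edgeR and DESeq2 called 0 of the neighbours of these 3 loci, with 0 at an unadjusted p under 0.05 in edgeR, and without replicate 3 of HEK WT 1 of 12 fell around PARP14 and 2 of 9 rose around ZC3HAV1L. In CN, the calls of all falls at the 3 loci ended with total counts, as did the rise around PARP12. With all 12 libraries in one fit 1 rise and 1 fall were called around PARP14, and the calls around the other 2 loci ended.

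Around PARP10 the neighbours were higher together. All 10 rose in CN, with a median of 0.89. EPPK1, which encodes epiplakin, rose by 1.999 (SE 0.132, adjusted p = 3.13e-06), NRBP2 by 1.19 (SE 0.158, adjusted p = 0.000222), PLEC, which encodes plectin, by 0.86 (SE 0.126, adjusted p = 0.000411) and PUF60, a splicing factor gene, by 0.61 (SE 0.123, adjusted p = 0.00277). LOC107986985, SPATC1, GPAA1, EXOSC4, GRINA and CYC1 rose by 1.45, 1.37, 0.92, 0.84, 0.52 and 0.30. GRINA (chr8:143990056-143993415) lies within the PARP10 body and SPATC1 (chr8:144010977-144047114) overlaps its end, so these genes may share reads with PARP10. In CN, LOC107986985 had 5 to 8 counts in HEK WT and 13 to 17 in HEK UL1 KO, and SPATC1 had 6 to 15 and 17 to 31. Both entered the test through the knockout, where they are higher, so their calls support nothing. The count was 6 with DESeq2 and with the replicate block, 3 with all 12 libraries in one fit, and 5 without replicate 3 of HEK UL1 KO, and in each of these settings none fell. With 10 counts required in every library, 8 of 8 rose. In NO, edgeR called 0 of 9 and DESeq2 0 of 10, the median was 0.65, 2 were higher at an unadjusted p under 0.05, and 3 rose without replicate 3 of HEK WT. Copy number was not measured, and its part in these values was not tested.

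**Figure D5:**
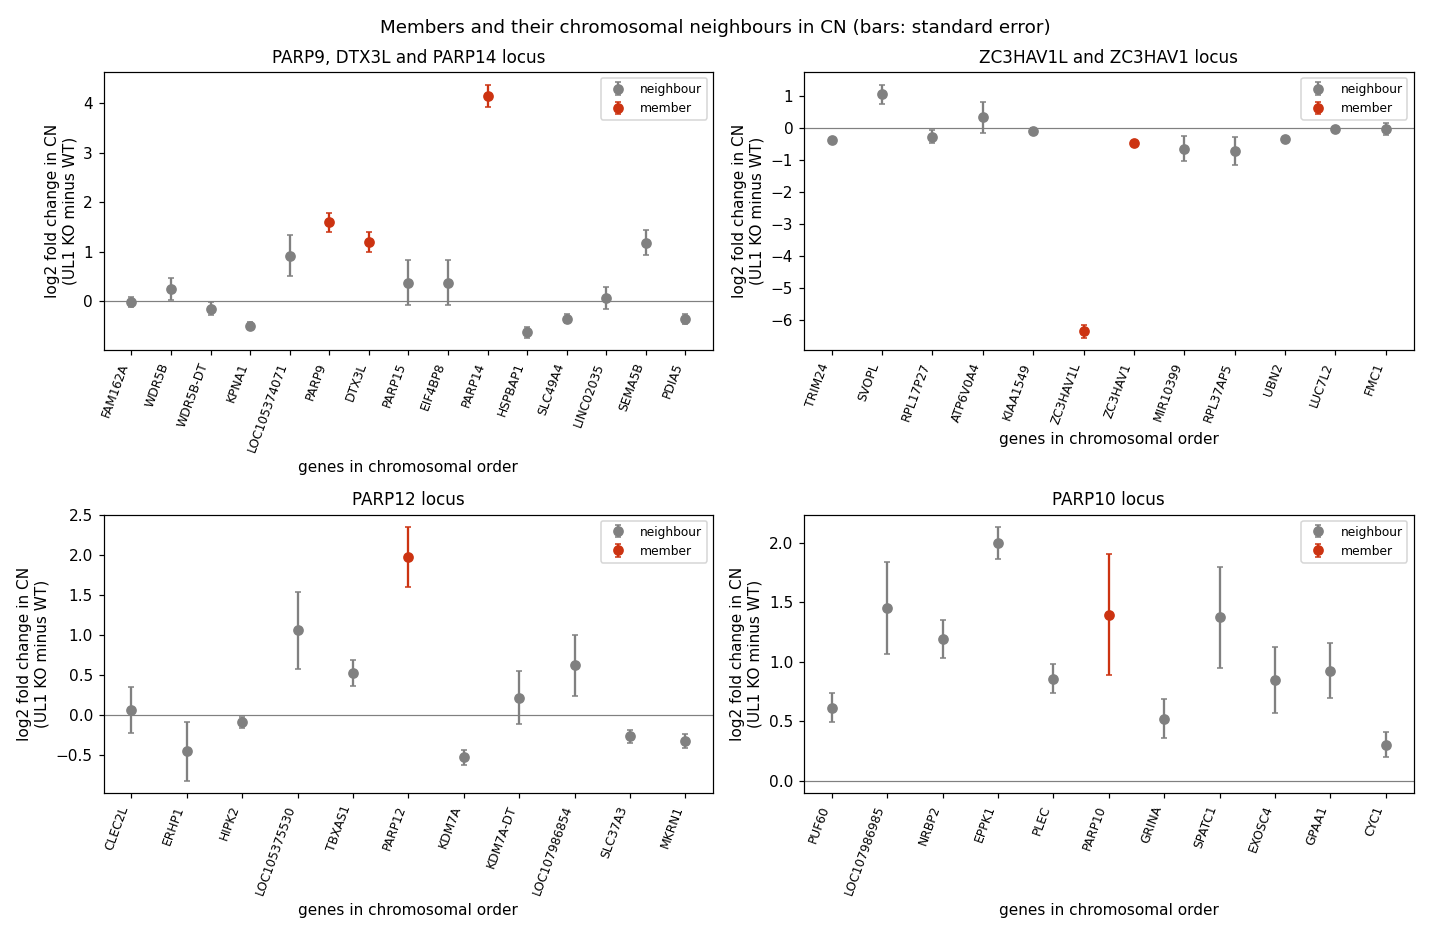
Log2 fold change in CN, HEK UL1 KO minus HEK WT, of the 7 genes (red) and their nearest tested neighbours (grey) in chromosomal order, with standard errors as bars. ZC3HAV1L stood at −6.36 between KIAA1549 at −0.08 and ZC3HAV1 at −0.48, while the 10 neighbours of PARP10 lay between 0.30 and 1.999.

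The genes whose level followed each of the 7 most closely over the 12 libraries were taken by Pearson's r of log2(CPM + 0.5) among 18034 well-covered genes. These r describe libraries that fall into 4 groups and share their depth and scaling, so they carry no p. SFRP1 (r = 0.995), KHDC1 (0.991) and SORBS2 (0.990) were most like PARP14, and INA and LINC00470 (each r = 0.988) were most like ZC3HAV1L. LIMCH1 (0.984), PNPLA4 (0.983) and RBM47 (0.983) were most like PARP9, and KRT18 (0.967), CITED1 (0.952) and MDK (0.947) were most like its partner DTX3L. SHROOM2, SRPX2 and LOC105377785 (each r = 0.987) were most like PARP12. NR2F1-AS1, FEM1C and NCOA1 (each r = 0.993) were most like ZC3HAV1, while PARP10 had no gene above r = 0.838 (BMP8B), followed by INF2 (0.829) and CSPG4P10 (0.789).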

How the data were processed

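RNA of 12 libraries was analysed from raw counts per gene, which the authors deposited as 1 table per fraction. According to the study's methods and the submitters' processing notes, CORALL total RNA libraries without rRNA depletion were read in 75-base single reads, checked with FastQC 0.11.4, trimmed with Cutadapt 3.7, aligned to GRCh38 with STAR 2.7.8 with up to 20 alignments per read, and counted with featureCounts. The counting options, strand setting and annotation version are not given in the sources used here, so genes that overlap or share repeated sequence may exchange reads.

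The members and gene lists were chosen with earlier results of these data known. Counts were fitted with R 4.3.3 and edgeR 4.0.16 (filterByExpr with minimum count 10, TMM, quasi-likelihood F test, Benjamini-Hochberg adjustment over all genes tested, called under 0.05) in the 6 libraries of each contrast, with no replicate block. DESeq2 1.42.0 was an alternative, beside total counts, TMM without 616 rRNA rows, no filter, all 12 libraries fitted together, a minimum of 10 counts per library, a replicate block and each library left out. CPM were compared by exact permutation of libraries. Procedures were tested on simulated data. Total counts of 37141666 to 104040073 per library set the precision, and the spread between replicates stands for it.

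The genes named are the 7 members, HNRNPUL1, the neighbours, STAT2, IRF9, IRF1, ISG15, IFIT1, MX1, OAS1, TRIM25 and KHNYN, the 4 largest rises and 4 largest falls per list in CN among called genes with a mean of at least 50 counts, and the 3 genes most like each member. Some of the genes this rule names are not reported here. Exon lengths are from GENCODE and promoters from RefSeq (GRCh38.p14). Replicate numbers in the labels were not taken as pairs, since same-numbered libraries of different groups deviated in opposite directions.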

Additional observations from a re-analysis of the deposited data

How the results depend on the processing

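The differences between the genotypes of PARP9, DTX3L, PARP14, PARP12 and ZC3HAV1L kept their sign in every alternative tried in both fractions, from 4.004 to 4.36 for PARP14 and −6.46 to −6.18 for ZC3HAV1L in CN. A filter of 10 counts in every library removed PARP14, PARP12, PARP10 and ZC3HAV1L in CN and gave no value there. Counts of called genes moved more. In NO between the genotypes (327 genes) they were 1082 with DESeq2, 1744 with all 12 libraries, 143 with 10 counts in every library, 1190 with no filter, 10 with total counts and 123 to 9133 with 1 library left out. In CN (10323) they were 4217 with all 12 libraries and 5421 with total counts. Between the fractions in HEK WT (15494) they were 24943 with all 12 libraries, 8759 with 10 counts in every library, 9577 with the replicate block and 6993 with total counts, and in HEK UL1 KO (26287) they were 13163 with 10 counts in every library. The interaction (43) had 79 genes with DESeq2, 20 with 10 counts in every library, 104 with no filter, 0 with total counts, 30 with the replicate block and 25 to 57 with 1 library left out.

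Between the fractions, the sign of these differences turned. In HEK WT, DTX3L became −0.17 with DESeq2 and with all 12 libraries and −0.15 with no filter, and ranged from −0.14 to 0.22 with 1 library left out, and PARP9 ranged from −0.14 (without replicate 3 of NO) to 0.44. In HEK UL1 KO, PARP9 became 0.28 and PARP14 0.51 with total counts, PARP14 became 0.18 with 10 counts in every library, and PARP10 ranged from −0.95 (without replicate 2 of NO) to 0.70 with 1 library left out. The cause was not tested. Among the fold changes and interactions of the members in all alternatives, 406 values kept direction and call or moved less than the spread between replicates. Of the others, 33 moved by more than that spread, 11 turned their sign between the fractions, 23 lost a call and 2 gained a call. The counts of called genes given above are not part of this tally. Same-numbered libraries correlated in their deviations at −0.030 to −0.452, so the numbers were not treated as pairs.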

Other observations

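The gene lists related to the 7 genes were also compared between the fractions, where 31.9% of all genes were higher and 20.9% lower in NO in HEK WT and 40.7% and 35.6% in HEK UL1 KO. Of 18 genes for ZAP cofactors and RNA decay enzymes, 9 were lower in NO than in CN in HEK WT and 16 in HEK UL1 KO, with medians of −0.48 and −0.78 on the log2 scale against 0.02 and 0.03 over all genes. Of the other PARP family genes, 5 of 12 were lower in NO in HEK WT and 9 of 12 in HEK UL1 KO, while 2 and 1 were higher. Of the interferon-stimulated genes, 15 of 48 were higher in NO and 5 lower in HEK WT, with a median of 0.21, and in HEK UL1 KO 19 of 55 were higher in NO and 16 lower, with a median of 0.07. Scaling by total counts moved the median of all genes by 0.35 in HEK WT and 0.76 in HEK UL1 KO. With that scaling only 606 and 825 of all genes tested were called lower in NO. The directions above therefore hold only relative to the median gene. Whether the counts of the lists differ between the genotypes was not tested.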
